A study of Mus musculus with 4 samples.

Results

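The genes described here are 10 genes of the mouse MHC class I pathway, picked by symbol from 24784 genes measured in tumour-associated macrophages. They are the class I heavy chain genes H2-K1, H2-D1, H2-Q7 and H2-T23, the shared light chain B2m, the peptide transporter genes Tap1 and Tap2, the loading factor Tapbp, the trimming enzyme Erap1 and the regulator Nlrc5. All 10 were found, and all 10 passed the filter on low levels, a mean of at least 1 RPKM over the libraries. RPKM counts reads per unit length of a gene model, adjusted for the size of the library.

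The RNA came from macrophages sorted out of tumours in the liver of male mice, 6 to 8 weeks old. Every mouse had received Hepa 1-6, a mouse hepatoma cell line, by a route written as i.pv. in the labels. The groups were 2 libraries of genotype Control (control 1 and control 2) and 2 of genotype OXCT1mKO (OXCT1mKO 1 and OXCT1mKO 2). The m of the genotype name, the strain, the allele, any Cre driver and the sort antibodies are details not given in the sources used here. Nothing says that libraries came from separate animals, so the spread between these particular samples may be technical. Each p-value rests on that spread, with the variance of a gene drawn by limma towards that of genes of similar level.

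MHC class I molecules show peptides from inside the cell to CD8+ T cells and to receptors of natural killer cells, and nearly all nucleated cells carry them. Proteasomes cut cytosolic proteins, the TAP transporter moves the peptides into the endoplasmic reticulum, aminopeptidases trim them, and tapasin keeps an empty heavy chain and its light chain beside TAP until a peptide fits. Interferons raise these genes together, in part through NLRC5, a transactivator recruited to class I promoters. In macrophages class I also shows peptides taken from engulfed cells, a route called cross-presentation.

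Across the libraries the deposited values summed to between 325034 and 377575 RPKM, and the read depth is unknown. Oxct1, the gene in the genotype name, stood at 19.3 and 20.3 RPKM in control 1 and control 2 and fell to 14.7 and 15.4 RPKM in the OXCT1mKO libraries (-0.37 ± 0.09 SE on the log2 scale, adjusted p 0.0346 by limma). That p was 0.0559 without control 2 and 0.171 with libraries scaled to equal RPKM sums. Of 12523 genes tested, 32.8% were called at an adjusted p under 0.05, 2058 (16.4%) upward and 2052 (16.4%) downward, and the median log2 fold change was 0.00. Upward calls made up 50.1% of all calls, 72.3% with equal RPKM sums and 64.8% with globin genes left out of the sums. Without OXCT1mKO 1 the fit made 0 upward calls and 1 downward, and without OXCT1mKO 2 it made 9 upward and 1 downward. Without the filter on low genes the calls of H2-K1, Oxct1, H2-Q6, H2-Q8, Hfe, H2-Eb1, H2-Aa, Cd74, Blmh, Sec61a1, Uggt1, Irf1, Klra2 and Cd8b1 were lost as well, with adjusted p from 0.0504 to 0.182.

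Mean levels of the 10 class I genes were modestly higher in OXCT1mKO. Tapbp rose by 55.1%, Erap1 by 43.2% and H2-K1 by 41.0%, and these 3 of 10 passed the limma threshold, where 16.4% of all tested genes were called upward and 32.8% in either direction. The other 7 did not pass, with ratios of the group means from 1.16 for H2-D1 to 1.40 for B2m. By limma 0 members fell, and 0 were lower at an unadjusted p under 0.05, while 6 were higher, against 24.2% higher and 23.7% lower over all tested genes at that unadjusted p.

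In all 10 genes both OXCT1mKO libraries lay above both controls, which held for 37.6% of all tested genes, while 37% of them had both OXCT1mKO libraries below both controls. The median of their log2 fold changes was 0.39, between 0.22 and 0.62, where folds are on the log2(RPKM + 1) scale. With equal RPKM sums the median of the 10 was 0.55 and that of all genes 0.14, and 8 of the 10 passed, all but H2-D1 and Tap1, where 23% of all tested genes rose.

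**Figure D1:**
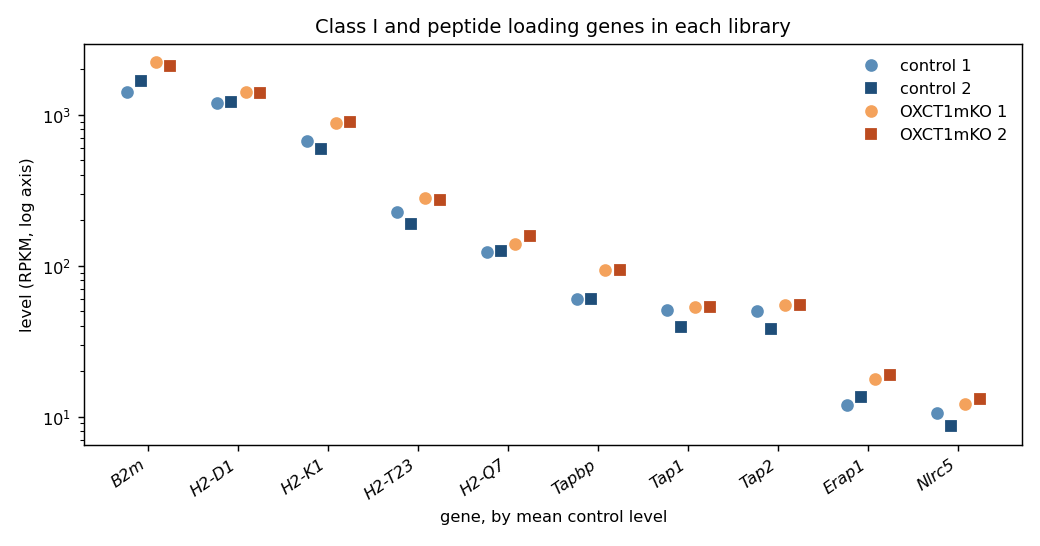
Level of each of the 10 genes (RPKM, log axis) in the 4 libraries, 1 point per library. In every gene the OXCT1mKO points lie above the control points, from 2229 and 2105 RPKM for B2m to 12.1 and 13.0 RPKM for Nlrc5.

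By mean control level, a scale per length, the order was B2m, H2-D1, H2-K1, H2-T23, H2-Q7, Tapbp, Tap1, Tap2, Erap1 and Nlrc5. Tap1 and Tap2 were the only neighbours in this order with overlapping control values. In OXCT1mKO the order was the same except that Tap2 lay above Tap1. Together the 10 rows made up 1.01% and 1.11% of all RPKM in the controls and 1.58% and 1.55% in OXCT1mKO.

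**Figure D2:**
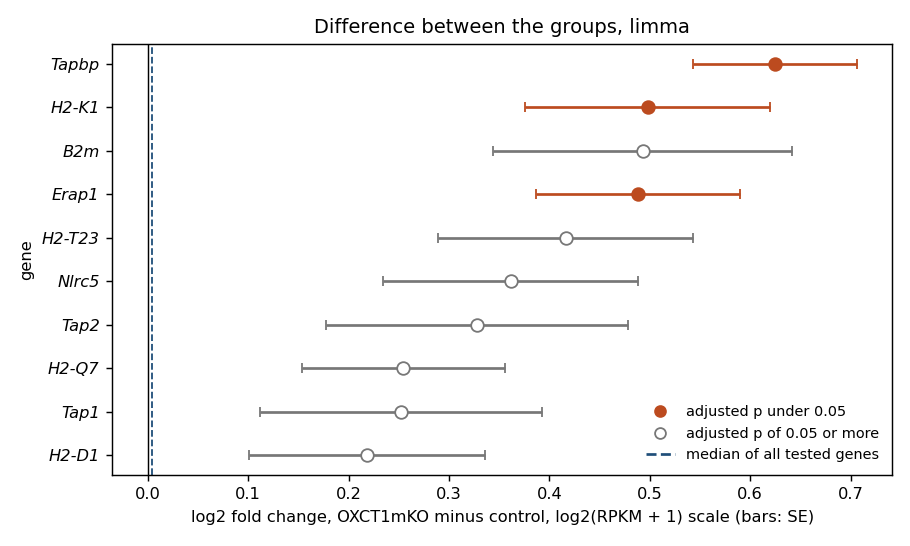
Log2 fold change of each gene (OXCT1mKO minus control, log2(RPKM + 1) scale) with its standard error from limma, marked where the adjusted p was under 0.05. Tapbp at 0.62, H2-K1 at 0.50 and Erap1 at 0.49 passed, against a median of 0.00 over all tested genes.

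The classical heavy chains present most peptides to CD8+ T cells. H2-K1, the K heavy chain gene, lies at chr17:33996017-34000347 of GRCm38 on the minus strand. Control 1 and control 2 held 673 and 591 RPKM, OXCT1mKO 1 and OXCT1mKO 2 886 and 895 RPKM. The OXCT1mKO libraries were closer to each other than the controls were, and the groups did not overlap. H2-K1 rose by 0.50 ± 0.12 (SE) on the log2 scale, at an adjusted p of 0.0380 by limma. Leaving out control 2, OXCT1mKO 1 or OXCT1mKO 2 gave an adjusted p of 0.0526, 0.203 or 0.191, and using no filter on low genes gave 0.123.

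H2-D1, the D heavy chain gene, lies at chr17:35262730-35267499 on the plus strand. It measured 1196 and 1213 RPKM in the control libraries and 1416 and 1386 RPKM in those of OXCT1mKO. The groups did not overlap, but the log2 fold change, 0.22 ± 0.12, was the smallest of the 10 and missed the threshold (adjusted p 0.204 by limma). Quantile normalization moved it to 0.52 (adjusted p 0.0380). Within a library H2-K1 was 0.562 and 0.487 times H2-D1 in the controls and 0.626 and 0.646 times in OXCT1mKO, a larger share of the pair in both OXCT1mKO libraries. Ratios are given without a test, since permuting 2 libraries against 2 allows no exact two-sided p under 0.333.

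Nonclassical heavy chains vary less between mice and show narrower sets of peptides. H2-T23, at chr17:36029773-36032855 on the minus strand, encodes Qa-1, which shows leader peptides of other class I chains to an inhibitory receptor of natural killer cells. Its level went from 228 and 188 RPKM in the controls to 280.2 and 272 RPKM, a log2 fold change of 0.42 ± 0.13 that missed the threshold (adjusted p 0.0622 by limma) and was 0.55 without control 1 (adjusted p 0.0302) and 0.28 without control 2 (0.0831). H2-Q7, at chr17:35439155-35443773 on the plus strand, encodes a Qa-2 antigen. It held 123 and 125 RPKM in the controls against 139.8 and 157 RPKM, with a log2 fold change of 0.25 ± 0.10 (adjusted p 0.111 by limma). Neither gene's groups overlapped.

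Heavy chain genes resemble each other, so their reads can be split between copies or counted more than once. In global alignments of GENCODE coding sequences, H2-K1 and H2-D1 were 88.3% identical, and H2-K1 and H2-Q7 were 78.5% identical. Of all 50-base stretches of a member's transcript, 40.2% for H2-Q7, 29.8% for H2-T23, 14.3% for H2-D1 and 8.8% for H2-K1 also occurred in transcripts of another gene. The share was 21.0% for Tapbp, 14.0% for Erap1, 12.6% for Tap2, 6.5% for Tap1 and 0 for B2m and Nlrc5. That annotation has no H2-L, H2-Q8, H2-Q9 or H2-T9, which are rows of the deposited table, so sharing among the heavy chain rows there may be larger. Some rows moved in step: H2-Q9 was 1.01 times H2-Q7 in every library, and H2-Q6 was 1.03 times H2-Q8, so these pairs are not separate measurements. H2-L was 1.14 and 1.16 times H2-D1 in the controls and 1.19 and 1.21 times in OXCT1mKO. Whether H2-D1 shares reads with H2-L was not tested. The sum of 9 H2-Q rows was 660.1 and 705 RPKM in control and 889 and 899 RPKM in OXCT1mKO libraries (0.39 ± 0.11 on the log2 scale, adjusted p 0.0528 by limma). This sum holds H2-Q7 with H2-Q9 and H2-Q6 with H2-Q8, so it may count the same reads more than once. Heavy chain levels are uncertain to the extent that reads were shared.

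Promoter windows from RefSeq (GRCm38.p6), reaching from 250 bases before to 50 after the annotated start, were found for 8 of the 10 genes, all but Tap2 and Nlrc5. Those of H2-K1, H2-D1 and H2-Q7 are shown because they hold the same motifs in the same order. Capitals mark, from 5′ to 3′, the kappa B site of enhancer A, the interferon element next to it, the X2 core (TGACGC in H2-K1 and H2-D1, TGACGT in H2-Q7) of the module at which NLRC5 acts, and CCAAT on either strand.
H2-K1 (chr17:34000298-34000597, minus strand): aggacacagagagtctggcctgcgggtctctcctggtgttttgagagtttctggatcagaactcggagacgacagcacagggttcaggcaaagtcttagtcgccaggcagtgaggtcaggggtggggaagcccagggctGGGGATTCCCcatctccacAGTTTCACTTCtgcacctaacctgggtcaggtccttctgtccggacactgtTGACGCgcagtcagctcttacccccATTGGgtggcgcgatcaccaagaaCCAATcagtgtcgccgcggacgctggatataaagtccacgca
H2-D1 (chr17:35262844-35263143, plus strand): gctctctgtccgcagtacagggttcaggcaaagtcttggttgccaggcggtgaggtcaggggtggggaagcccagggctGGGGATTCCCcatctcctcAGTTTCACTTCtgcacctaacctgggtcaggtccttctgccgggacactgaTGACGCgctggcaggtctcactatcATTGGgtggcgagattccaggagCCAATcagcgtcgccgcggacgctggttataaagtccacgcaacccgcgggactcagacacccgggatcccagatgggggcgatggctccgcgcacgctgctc
H2-Q7 (chr17:35438905-35439204, plus strand): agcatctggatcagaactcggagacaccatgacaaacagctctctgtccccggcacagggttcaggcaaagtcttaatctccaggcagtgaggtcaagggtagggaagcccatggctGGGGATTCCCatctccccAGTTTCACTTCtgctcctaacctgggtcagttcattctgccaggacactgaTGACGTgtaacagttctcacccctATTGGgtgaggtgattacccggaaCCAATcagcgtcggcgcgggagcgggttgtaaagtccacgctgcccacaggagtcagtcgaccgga

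In H2-K1, H2-D1 and H2-Q7 the interferon element began 19, 19 and 18 bases after the beginning of the kappa B site, and the X2 core 70, 70 and 69 bases after it. Among 27025 windows of the same length, searched on both strands, the kappa B letters occurred in 0.104% and those of the interferon element, chosen after the sequences were seen, in 0.0592%. TGACGC occurred in 7.5%, TGACGT in 7.64% and CCAAT in 37.9%. Locally aligned, the H2-K1 window was 88.3% identical to that of H2-D1 over 239 columns and 79.1% identical to that of H2-Q7 over 277. The log2 fold changes of the 3 genes were 0.50, 0.22 and 0.25.

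**Figure D3:**
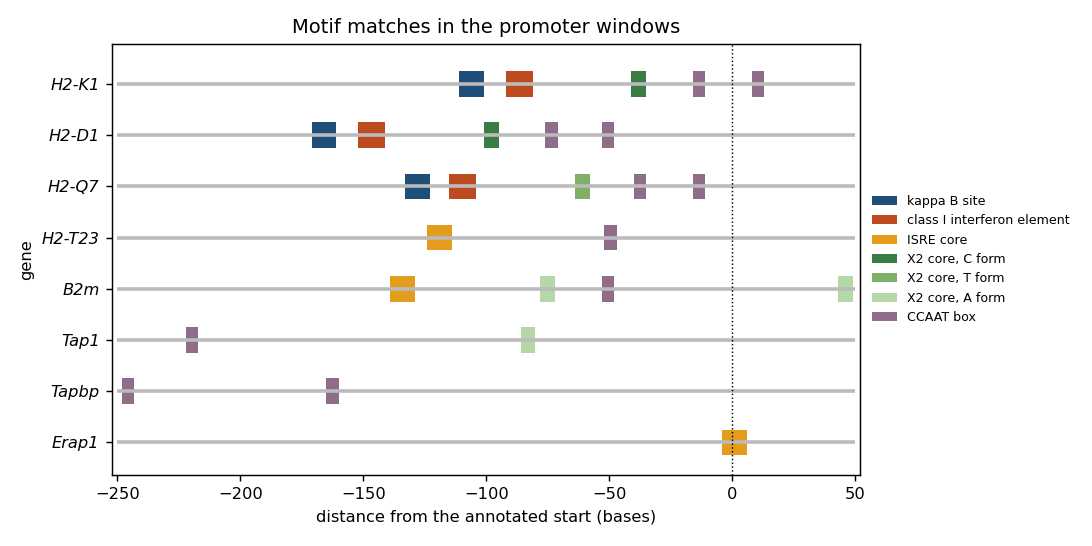
Motif matches (coloured boxes) in 8 promoter windows, by distance from the annotated start in bases. H2-K1, H2-D1 and H2-Q7 show the same order of boxes, and B2m, H2-T23 and Erap1 hold the core of the interferon-stimulated response element.

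B2m encodes beta-2-microglobulin, the light chain that class I heavy chains need to fold and reach the surface, and lies at chr2:122147686-122153083 on the plus strand. Its level was 1417 RPKM in control 1, 1671 RPKM in control 2, 2229 RPKM in OXCT1mKO 1 and 2105 RPKM in OXCT1mKO 2. In that order it ranked 23, 11, 5 and 6 among all genes of the library. The groups did not overlap, and the controls differed from each other by more than the OXCT1mKO libraries did. The log2 fold change, 0.49 ± 0.15, missed the threshold (adjusted p 0.0606 by limma). Leaving out control 1 gave 0.37 (adjusted p 0.112). It passed without control 2 (0.61, adjusted p 0.0348), without the variance trend (0.0443) and with a minimum mean of 5 RPKM (0.0444).

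Per B2m, H2-D1 was lower in OXCT1mKO, at 0.635 and 0.659 against 0.844 and 0.726 in the controls. H2-Q7 per B2m was 0.0627 and 0.0747 against 0.0869 and 0.0750, also lower in both though barely so in OXCT1mKO 2. H2-K1 per B2m overlapped between the groups, at 0.398 and 0.425 against 0.475 and 0.354, as did H2-T23 per B2m.

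The windows of B2m and Erap1 are shown because they hold the core of the interferon-stimulated response element (in capitals), which H2-T23 holds too and which occurred in 3.49% of all windows. Capitals mark this core and, in B2m, also CCAAT and an X2-like core, TGACGA. This last motif, chosen after the sequences were seen, occurred in 3.69% of all windows and also in that of Tap1.
B2m (chr2:122147437-122147736, plus strand): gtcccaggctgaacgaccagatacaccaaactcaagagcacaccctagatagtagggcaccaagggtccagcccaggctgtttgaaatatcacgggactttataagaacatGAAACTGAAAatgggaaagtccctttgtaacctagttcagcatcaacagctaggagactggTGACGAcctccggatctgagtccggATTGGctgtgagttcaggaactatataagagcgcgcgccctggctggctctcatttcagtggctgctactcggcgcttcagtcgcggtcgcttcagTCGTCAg
Erap1 (chr13:74639603-74639902, plus strand): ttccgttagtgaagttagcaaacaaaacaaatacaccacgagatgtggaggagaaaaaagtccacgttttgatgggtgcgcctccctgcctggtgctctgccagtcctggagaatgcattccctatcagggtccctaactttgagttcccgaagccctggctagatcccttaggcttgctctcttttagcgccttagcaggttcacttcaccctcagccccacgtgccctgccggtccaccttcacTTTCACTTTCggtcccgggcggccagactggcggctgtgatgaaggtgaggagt
The gamma-activated sequence TTCNNNGAA was in 0 of the 8 windows and in 8.47% of all windows. These are matches of letters and not measured sites.

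Tap1 and Tap2 encode the subunits of the transporter that carries peptides into the endoplasmic reticulum. They lie close together in the class II region with Psmb8 between them, Tap1 at chr17:34187553-34197225 and Tap2 at chr17:34203527-34216321, both on the plus strand. Tap1 held 50.7 and 39.3 RPKM in control 1 and control 2 and 53.2 and 53.6 RPKM in the OXCT1mKO libraries. Tap2 held 49.99 and 37.8 RPKM and 55.1 and 54.5 RPKM. In both genes control 1 lay close under the OXCT1mKO libraries and control 2 well below. Neither passed, with log2 fold changes of 0.25 ± 0.14 for Tap1 and 0.33 ± 0.15 for Tap2 (adjusted p 0.215 and 0.150 by limma). Their size depended on the control kept: without control 1 they were 0.43 and 0.53 (adjusted p 0.0355 and 0.0277), and without control 2 they were 0.07 and 0.13.

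Psmb9 and Psmb8 encode catalytic subunits of the immunoproteasome, which cuts peptides suited to class I, and lie beside the transporter genes. Exons of Psmb9 and Tap1 overlap over 212 bases on opposite strands. Psmb9 held 102 and 69.9 RPKM in control and 95.9 and 101 RPKM in OXCT1mKO libraries, with overlapping groups and a log2 fold change of 0.21 ± 0.19 (adjusted p 0.422 by limma). That was 0.49 without control 1 (adjusted p 0.0336) and -0.06 without control 2. Psmb8 held 134 and 119.9 RPKM against 135 and 137 RPKM (adjusted p 0.467 by limma). The low level in control 2 was shared by Tap1, Tap2, Psmb8 and Psmb9, and the ratio of Tap1 to Psmb9 overlapped between the groups, at 0.495 and 0.563 in the controls and 0.555 and 0.532 in OXCT1mKO.

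Tapbp encodes tapasin, which bridges TAP and empty class I molecules and helps to select stable peptides. It lies at chr17:33915899-33929292 on the plus strand. Both controls stood near 60 RPKM (60.1 and 60.4), and the OXCT1mKO libraries at 94.0 and 92.9 RPKM. The gap between the groups was far larger than that within either. Tapbp rose by 0.62 ± 0.08 on the log2 scale, the largest change of the 10 (adjusted p 0.0130 by limma), with 0.112 and 0.0863 when OXCT1mKO 1 or OXCT1mKO 2 was left out. Exons of other genes, mainly Gm19412 on the opposite strand, cover 29.0% of its exonic bases, and with a strand setting not given in the sources used here such reads cannot be told apart.

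Per Tap1, Tapbp was 1.19 and 1.54 in the controls and 1.77 and 1.73 in OXCT1mKO. Tapbpl encodes a tapasin relative that edits peptides away from TAP. It held 17.3 and 15.1 RPKM in the controls against 19.8 and 18.6 RPKM and missed the threshold (0.23 ± 0.11, adjusted p 0.148 by limma, and 0.14 without control 2). Per Tapbpl, Tapbp was higher in both OXCT1mKO libraries, at 4.75 and 5.01 against 3.47 and 4.01.

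Erap1 encodes the aminopeptidase that trims peptides in the endoplasmic reticulum and lies at chr13:74639568-74693201 on the plus strand. It held 12.0 and 13.5 RPKM in the controls against 17.8 and 18.8 RPKM, and the groups stood apart. Erap1 rose by 0.49 ± 0.10 on the log2 scale (adjusted p 0.0268 by limma), with 0.146 and 0.160 when OXCT1mKO 1 or OXCT1mKO 2 was left out. Exons of Cast, on the opposite strand, cover 11.5% of its exonic bases. Cast itself held 9.93 and 11.8 RPKM in control and 14.4 and 13.7 RPKM in OXCT1mKO libraries (0.34 ± 0.12, adjusted p 0.0778 by limma).

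Nlrc5, at chr8:94434356-94527272 on the plus strand, had the lowest level of the 10. Control 1 and control 2 held 10.6 and 8.61 RPKM and the OXCT1mKO libraries 12.1 and 13.0 RPKM, without overlap. The log2 fold change, 0.36 ± 0.13, missed the threshold (adjusted p 0.0858 by limma), and was 0.50 without control 1 (adjusted p 0.0411) and 0.23 without control 2 (0.153). Ciita, the related transactivator of class II genes, rose from 4.93 and 3.65 RPKM to 13.3 and 15.1 RPKM (1.53 ± 0.16, adjusted p 0.0127 by limma). Ciita was 0.466 and 0.424 times Nlrc5 in the controls and 1.10 and 1.16 times in OXCT1mKO, so the order of these regulators turned over.

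Of 31 other class I and class I-like genes, 21 were tested, of which 6 rose and 1 fell, with a median log2 fold change of 0.50. The shares over all tested genes were 16.4% upward and 16.4% downward. H2-M3, which presents formylated peptides, rose from 13.9 and 12.2 RPKM to 21.6 and 20.8 RPKM (0.66 ± 0.10). H2-T24 (1.02 ± 0.14), H2-Q5 (0.55 ± 0.09), the pair H2-Q6 (0.66 ± 0.13) and H2-Q8, which share reads, and Hfe (0.81 ± 0.16), a regulator of iron uptake, rose too. The call of Hfe was lost without control 1 (adjusted p 0.0618). H2-Bl fell from 3.40 and 1.65 RPKM to 0.386 and 0.405 RPKM. H2-Q4 held 178 and 176 RPKM against 215 and 198 RPKM (adjusted p 0.130 by limma), and H2-T22 39.2 and 35.8 RPKM against 36.4 and 35.7 RPKM (0.664). H2-M1, H2-M9, H2-M10.1, H2-M10.3 and H2-M11 were listed at 0 in all 4 libraries.

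**Figure D4:**
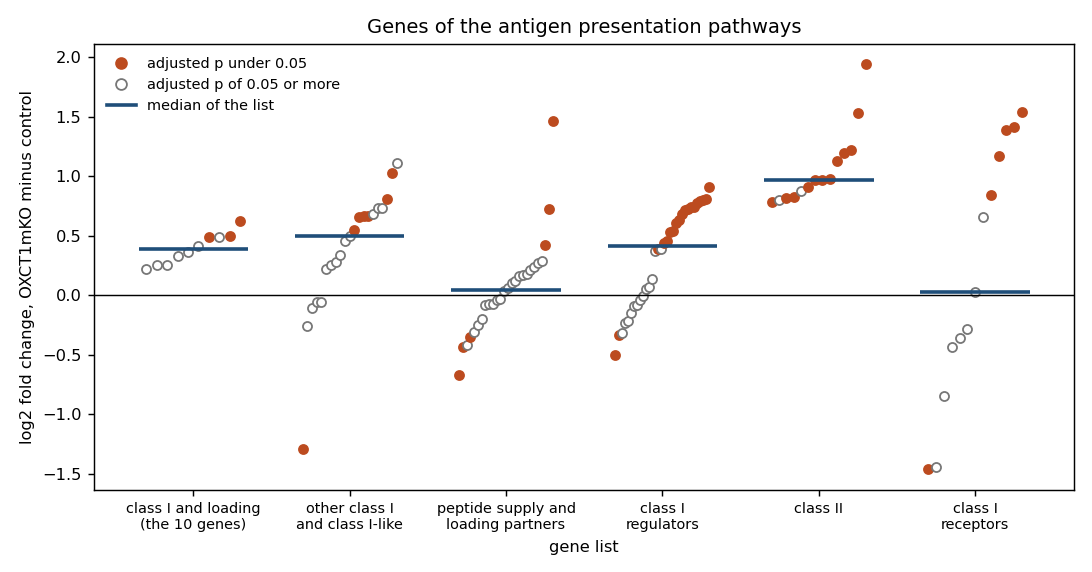
Log2 fold change (OXCT1mKO minus control) of the tested genes in the class I genes and the pathway lists, 1 point per gene, with each list's median. The median is 0.39 for the 10 class I genes, 0.05 for peptide supply and loading partners and 0.97 for class II.

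Genes that supply peptides or help heavy chains to fold shared no direction. Of 26 tested, 3 rose and 3 fell, with a median log2 fold change of 0.05, where 16.4% of all tested genes were called upward and 16.4% downward. Lnpep, an endosomal aminopeptidase used in cross-presentation, rose from 3.82 and 2.98 RPKM to 10.4 and 11.8 RPKM (1.46 ± 0.14). Sppl2a (0.73 ± 0.10), a protease of endosomal membranes, and Uggt1 (0.42 ± 0.11), a sensor of glycoprotein folding, rose as well. Thop1 (-0.67 ± 0.12) and Blmh (-0.43 ± 0.10), which break down cytosolic peptides, and the translocon gene Sec61a1 (-0.35 ± 0.09) fell. Leaving out a control ended the calls of Blmh (control 1, adjusted p 0.0688), Uggt1 (control 1, 0.0798) and Sec61a1 (control 2, 0.0606), and equal RPKM sums ended those of Blmh (0.0917) and Sec61a1 (0.246).

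In the loading complex, the chaperone genes besides Tapbp did not pass. Canx, which holds new heavy chains, stood at 73.5 and 76.6 RPKM in control and 75.7 and 78.2 RPKM in OXCT1mKO libraries (adjusted p 0.766 by limma). Pdia3, the oxidoreductase bound to tapasin, stood at 203 and 260.1 RPKM and 232 and 247 RPKM (0.776). Calr, the calreticulin gene, stood at 301 and 400.0 RPKM and 402 and 438 RPKM (0.251), with a log2 fold change of 0.27 that was 0.48 without control 2 (adjusted p 0.0410) and 0.07 without control 1 (0.648). Among proteasome genes, Psme2, an activator subunit, stood at 46.9 and 37.6 RPKM and 33.3 and 29.0 RPKM (-0.42 ± 0.14, adjusted p 0.0792 by limma), which was -0.58 without control 2 (adjusted p 0.0349) and -0.27 without control 1 (0.166). Psme1 and Psmb10 had overlapping groups (adjusted p 0.748 and 0.453 by limma).

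The regulator list held interferon receptors and signalling genes, transcription factors, repressors, and genes such as Susd6 and Sppl3 that act on class I proteins or their surroundings. Of these, 17 of 32 tested rose and 2 fell, with a median log2 fold change of 0.41, beside 16.4% upward and 16.4% downward over all tested genes. The interferon receptor genes Ifnar1 (0.68 ± 0.10) and Ifnar2 (0.73 ± 0.10), the interferon regulatory factor genes Irf8 (0.91 ± 0.11) and Irf2 (0.61 ± 0.09), and Susd6 (0.80 ± 0.10), whose product takes part in class I breakdown, rose. Irf1, an interferon-induced activator of Tap1 and Psmb9, stood at 64.9 and 66.8 RPKM in control and 133 and 92.9 RPKM in OXCT1mKO libraries. It rose by 0.75 ± 0.18 (adjusted p 0.0383 by limma), a call lost without control 1 or control 2 (adjusted p 0.0974 and 0.0788), and its fold was 0.49 without OXCT1mKO 1. Rfx5, a DNA-binding partner of NLRC5 and CIITA, stood at 3.89 and 3.03 RPKM and 4.91 and 4.73 RPKM (0.39 ± 0.14, adjusted p 0.0855 by limma), which was 0.53 without control 1 (adjusted p 0.0454) and 0.25 without control 2 (0.153). The genes that fell were Ezh2 (-0.50), a Polycomb methyltransferase, and Sppl3 (-0.34), an intramembrane protease.

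Class II genes, which present peptides of engulfed material, were the nearest comparison. Of 14 tested, 12 rose and 0 fell by limma, beside 16.4% upward and 16.4% downward over all tested genes. At an unadjusted p under 0.05 by limma, 0 class II genes were lower, against 23.7% of all tested genes. The median log2 fold change of the class II genes was 0.97. The lowest class II value, 0.79, was above the highest of the 10 class I genes, 0.62. H2-Aa, a chain of I-A, rose from 845 and 540.5 RPKM to 1471 and 1636 RPKM (1.20 ± 0.24), and Cd74, the invariant chain, from 2111 and 1659 RPKM to 3100.3 and 3496 RPKM (0.81 ± 0.18). H2-Ab1 was 1.52 and 1.09 times H2-K1 in the controls and 1.86 and 2.11 times in OXCT1mKO. The difference between the lists was not tested.

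In bulk RNA, fewer cells of a type and less RNA per cell cannot be told apart. Ptprc, the gene of the leukocyte antigen CD45, rose from 27.7 and 28.01 RPKM to 62.0 and 62.4 RPKM (1.13 ± 0.08, adjusted p 0.0127 by limma). Per Ptprc, each of the 10 class I genes was lower in both OXCT1mKO libraries than in both controls, with log2 differences from -0.53 for Tapbp to -0.94 for H2-D1. B2m, for example, was 51.2 and 59.7 times Ptprc in the controls and 35.9 and 33.7 times in OXCT1mKO. The median log2 fold change of all tested genes was 0.00, and a gene level across the libraries would also be lower per Ptprc. Ptprc had the largest rise of the 8 leukocyte genes, and the others, used as the scale after the Ptprc ratios were seen, gave other answers. Per Rac2 (-0.07), 9 of the 10 class I genes were higher in both OXCT1mKO libraries, and per Arhgdib (0.18) 7 were, with none lower by either. Per Coro1a (0.31) all 10 overlapped between the groups. Per Laptm5, Cd52, Cd53 and Lcp1, 2, 4, 6 and 7 were lower and none higher. The direction of the class I differences relative to leukocyte RNA thus depended on the gene used as the scale. Shares of all tested genes on these scales were not computed, so the counts cannot be read as particular to class I.

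Markers of the labelled macrophages and of other cells moved too. Of 12 macrophage genes 6 rose, and Lyz2, a lysozyme gene of myeloid cells, fell from 688 and 744 RPKM to 8.76 and 6.52 RPKM; the list summed to 1643 to 2234 RPKM in control and 1773 to 1957 RPKM in OXCT1mKO libraries. Without Lyz2 the other 11 macrophage genes summed to 1546 and 899 RPKM in control and 1765 and 1951 RPKM in OXCT1mKO libraries, which did not overlap. Leukocyte genes (3 of 8 rose and 0 fell) summed to 711 to 965 RPKM in control and 1121 to 1235 RPKM in OXCT1mKO libraries. Dendritic cell genes (6 of 8 rose and 0 fell) summed to 43.3 to 68.3 RPKM in control and 121 to 155 RPKM in OXCT1mKO libraries, and endothelial genes (7 of 10 rose and 0 fell) to 947 to 1117 RPKM in control and 1601 to 1779 RPKM in OXCT1mKO libraries. T cell genes (1 of 11 rose and 6 fell) summed to 179.8 to 259 RPKM in control and 63.9 to 108 RPKM in OXCT1mKO libraries, natural killer cell genes (1 of 8 rose and 2 fell) to 54.5 to 75.5 RPKM in control and 30.8 to 47.9 RPKM in OXCT1mKO libraries, and hepatoma genes (0 of 4 rose and 3 fell) to 138 to 167 RPKM in control and 53.5 to 62.5 RPKM in OXCT1mKO libraries. Epithelial genes (1 of 8 rose and 1 fell) summed to 897 to 1389 RPKM in control and 754 to 797 RPKM in OXCT1mKO libraries, and erythroid genes (0 of 5 rose and 0 fell, with 0 at an unadjusted p under 0.05) to 846 to 24384 RPKM in control and 309 to 329.5 RPKM in OXCT1mKO libraries. Sums overlapped between the groups for neutrophils (0 of 7 rose and 1 fell), hepatocytes (1 of 8 rose and 1 fell) and B cells (0 of 6 rose and 0 fell, with 0 at an unadjusted p under 0.05). All of these calls are by limma, where 16.4% of all tested genes were called upward and 16.4% downward. At an unadjusted p under 0.05 those shares were 24.2% and 23.7%. No marker in the table was at 0 in all 4 libraries. The part of these cells in the class I differences was not tested.

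The 10 genes differed in how the controls compared. H2-K1, H2-T23, Tap1, Tap2 and Nlrc5 were lower in control 2 than in control 1, B2m and Erap1 were higher, and H2-D1, H2-Q7 and Tapbp were nearly level. The mean of their log2 profiles, each centred on its own mean, was -0.14 in control 1, -0.25 in control 2, 0.19 in OXCT1mKO 1 and 0.21 in OXCT1mKO 2. H2-K1 lay closest to this mean, at a root mean square difference of 0.06, and B2m farthest, at 0.14. The 5 other tested genes closest to it over the 4 libraries were Dync1h1, Pak2, Zbtb1, Zfp97 and Naa60, at 0.00541 to 0.0146.

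**Figure D5:**
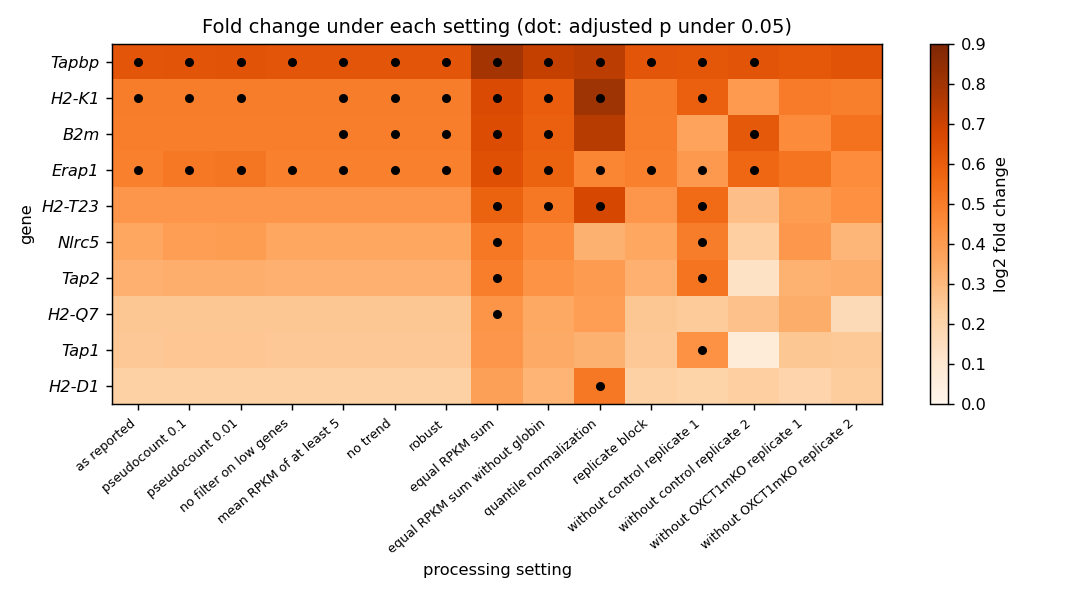
Log2 fold change of each gene (colour) under the reported processing and 14 alternatives (columns), marked where the limma adjusted p was under 0.05. All values are above 0, and no gene is marked without OXCT1mKO 1 or without OXCT1mKO 2.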

How the data were processed

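Bulk RNA of 2 control and 2 OXCT1mKO samples was measured. The authors deposited a table of RPKM values, 1 row per gene symbol. STAR 2.10, R 4.0.5 and build mm10 were named per the submitters' processing notes. Counting tool, strand setting, annotation and depth were not given in the sources used here. From the deposited values, log2(RPKM + 1) was computed, and the 12523 genes whose mean reached 1 RPKM were fitted in limma 3.58.1 (R 4.3.3) with a variance trend, two-sided tests and Benjamini-Hochberg adjustment over all of them (threshold 0.05). The log2 fold change understates changes of low genes. The fit was tested on simulated data. The members and lists were chosen with earlier results of these data known. Named genes were all members, Oxct1, Ptprc, fixed partners, up to 6 genes of the smallest p per pathway list and up to 2 per cell list, and the 5 genes of most like profile. Cast, Ezh2, Sppl3, H2-Bl, H2-Q9, H2-Ab1, Cd8a, the leukocyte genes used as scales beside Ptprc and the genes listed at 0 were named after their values were seen. So were H2-L, H2-T9, Rfxank, Rfxap, Klra3, Klra8 and Klra9. Locations, exon overlaps and transcripts came from GENCODE M21 (GRCm38), promoters from RefSeq (GRCm38.p6), and alignments from Biopython 1.88. A planned comparison of class I proteins was not run, and coding sequences were aligned in its place. A gene of the regulator list is not reported here by name. Alternatives covered pseudocount, filter, variance model, scaling, a replicate block and leaving out each library.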

Additional observations from a re-analysis of the deposited data

How the results depend on the processing

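All 10 class I genes kept a positive log2 fold change under each of the 14 alternatives. The count of class I genes with groups that do not overlap was 10 with the H2-Q rows summed, a sum that may repeat reads. Over all tested genes, both OXCT1mKO libraries lay above both controls for 37.6% and below both for 37%. The number of class I genes that rose, 3 as reported, was 8 with equal RPKM sums, 5 with globin left out of the sums and 5 with quantile normalization, and 0 to 7 when a library was left out (7 without control 1, 0 without either OXCT1mKO library). Of all tested genes, 16.4% rose as reported, 23% with equal RPKM sums, 21.7% with globin left out of the sums and 15% with quantile normalization. The number of class I genes that fell was 0 throughout. Over all genes, 1191 rose and 1149 fell without the filter on low genes, and 1104 fell with equal RPKM sums. Leaving out a library gave 0 to 2362 genes that rose and 1 to 2056 that fell. Where a group is left with a single library, that library is assumed to vary like the other group. Counts of calls from those fits rest on this assumption. The median log2 fold change of the 10 class I genes was 0.46 without control 1 and 0.27 without control 2. It was 0.40 without OXCT1mKO 1 and 0.39 without OXCT1mKO 2. Over all tested genes the medians were -0.02, 0.03, -0.01 and 0.01 in that order. The cause of these changes between settings was not tested. Some log2 fold changes that did not pass turned sign. That of Psme1 was 0.0953 with equal sums, 0.0288 with globin left out and 0.0659 with quantile normalization, and that of H2-T22 was 0.11 and 0.0443 with equal sums, globin counted and left out. When a library was left out, the range was -0.28 to 0.14 for Psme1, -0.12 to 0.00876 for H2-T22, -0.12 to 0.24 for Pdia3, -0.0578 to 0.49 for Psmb9, -0.00785 to 0.24 for Psmb10, -0.19 to 2.06 for Ms4a1 and -0.55 to 0.0961 for Pax5. Deviations of same-numbered libraries correlated at 0.0545 over genes, and the libraries share only a number. With the replicate number as a block, 2 class I genes rose (H2-K1 had an adjusted p of 0.0681 by limma), and 1871 of all genes rose and 1735 fell. Depth is unknown, and 2 libraries a group limit the precision.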

Other observations

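Receptors that bind class I or class I-like molecules were also described, together with the uptake receptor Lrp1. Of 13 tested, Lrp1 included, 5 rose and 1 fell, with a median log2 fold change of 0.03. The shares of all tested genes were 16.4% upward and 16.4% downward. Pirb, an inhibitory receptor of myeloid cells that binds class I, rose from 13.6 and 13.3 RPKM to 41.7 and 32.7 RPKM (1.39 ± 0.14), and its activating relative Pira2 rose by 1.41 ± 0.17. Klrk1 (1.17 ± 0.15), the NKG2D receptor of class I-like ligands, Klra2 (1.54 ± 0.36, or 0.99 without control 2), a Ly49 family gene, and Lrp1 (0.84 ± 0.10), an uptake receptor, rose as well. The other tested Ly49 genes, Klra3 (-0.84), Klra9 (-0.43) and Klra8 (-0.36), had low levels and were lower in both OXCT1mKO libraries. They missed the threshold (adjusted p 0.108, 0.0674 and 0.169 by limma). Cd8b1, the beta chain of the CD8 coreceptor, fell from 19.2 and 19.8 RPKM to 4.18 and 9.70 RPKM (-1.46 ± 0.35, adjusted p 0.0353 by limma), a call lost without control 1 (0.0904) or control 2 (0.0862), with a fold of -0.94 without OXCT1mKO 1. Cd8a stood at 22.9 and 17.6 RPKM in control and 3.73 and 11.7 RPKM in OXCT1mKO libraries and missed the threshold (adjusted p 0.0761 by limma).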
